A study of Mus musculus with 8 samples.

Results

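The genes of the proteasome were followed in mouse cumulus cells, the somatic cells around the oocyte, through the response to the ovulatory hormone. Members were taken as probe sets with a single gene symbol of the form Psma to Psmg followed by a number, without Psmb8, Psmb9 and Psmb10, which form the immunoproteasome. This gave 42 genes on 54 probe sets, of the 8251 genes with a single symbol and 12422 probe sets tested. Each gene is given by the brightest of its probe sets on average. One of the 42, Psmc3ip, shares only the form of its name: it encodes a protein of meiotic recombination and is no proteasome subunit, but is kept in the counts as the rule gives it.

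Both genotypes were C57Bl/6: WT, the wild type, and Ptger2(-/-), here EP2KO, which lacks EP2, a receptor for prostaglandin E2. All females, at 3 to 4 weeks of age, received 5 IU of PMSG, a gonadotropin that drives follicle growth. The arrays of 3, 9 and 14 h followed 5 IU of hCG, a substitute for the LH surge, given 48 h after PMSG, and the 0 h arrays had PMSG but no hCG. Each genotype has 1 array at each of the 4 times, so 8 arrays in all, and how many mice went into an array is unknown here. At 0, 3 and 9 h complexes were released from large antral follicles and stripped with glass capillaries. At 14 h they were taken after ovulation from the oviduct and treated with hyaluronidase, so that stage and collection cannot be told apart.

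The proteasome degrades proteins tagged with ubiquitin. Its barrel, the 20S core, is built of outer alpha rings, which gate the entry, and inner beta rings, of which Psmb5, Psmb6 and Psmb7 encode the cutting subunits. A 19S cap, with a base of ATPases that unfold the substrate and a lid that removes the ubiquitin chain, or an activator such as those encoded by Psme1, Psme3 and Psme4, sits on its ends. In a cycling or differentiating cell it removes cyclins, transcription factors and misfolded proteins, and its subunits are often transcribed together, in part through NFE2L1 and NFE2L2, which bind antioxidant response elements.

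Values are log2 RMA signals of Affymetrix arrays, on which a step of 1 is a doubling. The median of an array ran from 7.79 to 7.89, and its standard deviation from 1.77 for WT at 0 h to 1.99 for WT at 3 h. Ptger2 read 4.95, 5.97, 5.37 and 5.33 in WT at 0, 3, 9 and 14 h, and 4.57, 4.24, 4.69 and 4.51 in EP2KO, lower in EP2KO at each time; whether its probe set lies in the deleted part is not known. The 10 measured markers of cumulus and granulosa cells had array medians from 9.89 to 11.97, while the array medians of the 11 oocyte markers lay between 7.13 and 7.78. In such bulk samples, fewer cells of a type and less RNA per cell cannot be told apart. Precision is limited by how few arrays there are. P-values reflect only the spread between arrays, which may be technical. In the moderated test each probe set's spread is drawn towards that of all probe sets. In what follows a gene rose or fell where limma's moderated test, adjusted by Benjamini-Hochberg over all 12422 probe sets, gave a p under 0.05.

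Promoter windows are shown for the cutting subunits Psmb5 and Psmb6, which rose early, for Psma2 and Psma4, whose falls were the largest, and for Psme4, which was above its 0 h level at 3, 9 and 14 h by the test. The windows are from RefSeq on GRCm38.p6 and run from 150 bases before the annotated start to the first 10 bases from it, 5′ to 3′ along the gene. They lie at chr14:54617986-54618145 on the minus strand, chr11:70525207-70525366 on the plus strand, chr13:14613092-14613251 on the plus strand, chr9:54950709-54950868 on the plus strand and chr11:30771625-30771784 on the plus strand. Capitals mark matches to TGACNNNGC, the core of the antioxidant response element, or to CCAAT, the NF-Y box, on either strand.
Psmb5: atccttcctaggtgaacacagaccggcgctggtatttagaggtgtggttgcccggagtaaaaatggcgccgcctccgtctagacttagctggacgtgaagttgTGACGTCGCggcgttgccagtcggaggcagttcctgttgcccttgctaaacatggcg
Psmb6: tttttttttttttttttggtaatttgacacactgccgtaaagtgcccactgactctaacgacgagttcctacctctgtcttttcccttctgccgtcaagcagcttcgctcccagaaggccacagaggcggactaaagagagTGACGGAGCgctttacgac
Psma2: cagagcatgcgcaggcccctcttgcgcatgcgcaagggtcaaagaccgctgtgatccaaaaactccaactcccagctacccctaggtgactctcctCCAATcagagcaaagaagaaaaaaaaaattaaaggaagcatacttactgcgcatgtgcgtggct
Psma4: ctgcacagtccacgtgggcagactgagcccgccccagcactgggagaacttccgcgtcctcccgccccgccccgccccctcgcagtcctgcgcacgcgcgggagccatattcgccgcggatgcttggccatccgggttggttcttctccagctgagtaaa
Psme4: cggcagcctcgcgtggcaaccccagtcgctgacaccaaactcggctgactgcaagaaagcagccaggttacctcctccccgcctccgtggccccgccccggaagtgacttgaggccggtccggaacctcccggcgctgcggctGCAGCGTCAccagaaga
Psmb5 and Psmb6 each held TGACNNNGC as printed, from base −47 to −39 in Psmb5 and from −9 to −1 in Psmb6, counted with the start as 0. Psme4 held it on the other strand, and Psma2 held 1 CCAAT. The start used for Psmb6 lies 33 bases, and that for Psma4 78 bases, downstream of the start of the RefSeq gene. By the RefSeq gene start the Psmb6 match lies within the gene. Over windows of 250 bases before to 50 after the start, 6 of the 35 members with an entry in the table held TGACNNNGC, or 17.1%, against 14.0% of 27025 genes. Not shown are Psmc6, Psmd9 and Psmd12, which held it too. At 3 h against 0 h they stood at 0.24, 0.16 and 0.42 and did not pass. A link between the motif and the changes was not tested. CCAAT was held by 13 of the 35, or 37.1%, against 41.1% of all. The 7 members Psmb1, Psmb2, Psmb7, Psmc3, Psmd3, Psmd7 and Psmg2 had no entry. Neither motif was held by a share of the members far from that of all genes.

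Most members followed a single course: up by 3 h, partly back by 9 h and lowest after ovulation. The mean of the 2 arrays of a time was highest at 3 h for 30 of the 42 members and lowest at 14 h for 33. Of all 8251 genes, 24.6% were highest at 3 h and 23.4% lowest at 14 h. The median member stood at 9.80 in WT and 10.34 in EP2KO at 0 h, 10.89 and 10.81 at 3 h, 10.30 and 10.41 at 9 h, and 9.71 and 9.58 at 14 h. Across the 8 arrays, which all members share, 30 members correlated with the median course of the 42 with r of at least 0.8, and 6 had an r below 0: Psmc4, Psmd2, Psmd11, Psme3, Psme4 and Psmg3. Each member is itself part of that median, which favours a high r, and the share of all genes with such an r was not computed.

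**Figure D1:**
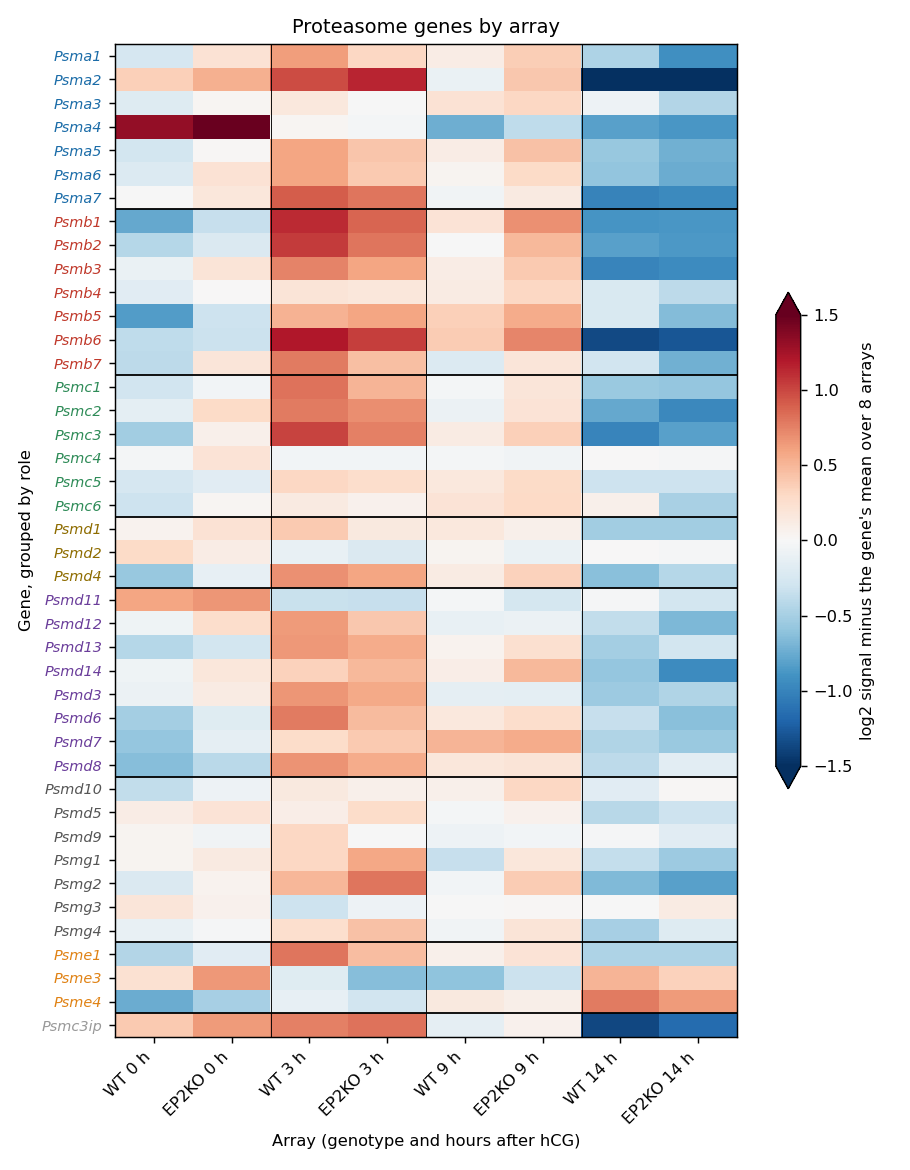
Heat map of 42 genes (rows, grouped by role: blue names, alpha ring; red, beta ring; green, ATPases; ochre, other base; purple, lid; dark grey, chaperones; orange, activators; light grey, Psmc3ip) on the 8 arrays (columns, hours after hCG), with each gene's log2 signal minus its own mean over the arrays, coloured from −1.5 to 1.5. The 3 h columns are red and the 14 h columns blue for most rows, while Psma4 and Psmd11 are highest at 0 h and Psme4 is highest at 14 h.

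The comparison of 3 h with 0 h asks how the cells first respond to hCG. Of the 42 members 24 rose, 4 fell and 14 did not pass. Of all genes 20.1% rose, 23% fell and 43.1% passed either way, against 57.1%, 9.52% and 66.7% of the members. The median change of the members was 0.49 and that of all genes −0.10. On the brightest probe sets the rise was highest in the beta ring, with a median of 1.13, against 0.65 in the lid, 0.58 in the ATPases and 0.49 in the alpha ring. This ranking depends on the probe set taken. In the beta ring the other sets of Psmb1 stood at −0.18 and −0.68, and that of Psmb5 at −0.66. In the lid the other sets of Psmd11 stood at 0.51 and −0.52. In both genotypes 33 members moved up, 6 moved down and 3 went opposite ways.

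In the beta ring 6 of 7 members rose. Psmb1, a structural subunit, read 9.61 in WT and 10.03 in EP2KO at 0 h and 11.50 and 11.25 at 3 h, a rise of 1.56 ± 0.174 (SE over 2 arrays a time; adjusted p = 0.000202 in limma) or 2.94-fold. Both 3 h arrays lay above both 0 h arrays. Psmb6, the caspase-like cutting subunit, went from 10.71 and 10.77 to 12.30 and 12.13, up by 1.47 ± 0.138 (limma, adjusted p = 8.47e-05). The groups did not overlap. Psmb2, another structural subunit, went from 10.20 and 10.41 to 11.68 and 11.43, up by 1.25 ± 0.165 (limma, adjusted p = 0.000473). Psmb5, the chymotrypsin-like cutting subunit, went from 10.47 and 10.99 to 11.82 and 11.90, up by 1.13 ± 0.188 (limma, adjusted p = 0.00153). The trypsin-like Psmb7 rose by 0.72 and Psmb3 by 0.62, while Psmb4 stood at 0.27 and did not pass.

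In the cap, Psmd8 of the lid read 8.93 and 9.17 at 0 h and 10.24 and 10.13 at 3 h in WT and EP2KO, a rise of 1.14 ± 0.129 (limma, adjusted p = 0.000217). In all 5 of 8 lid members rose, among them Psmd6 by 0.97, Psmd13 by 0.96, Psmd7 by 0.69 and Psmd3 by 0.60. The deubiquitinase Psmd14 stood at 0.36 and Psmd12 at 0.42 without passing. Of the 6 ATPases 4 rose, namely Psmc3 by 1.10, Psmc1 by 0.83, Psmc2 by 0.67 and Psmc5 by 0.50. Psmd4, a ubiquitin receptor, rose by 0.99, from 10.89 and 11.33 to 12.15 and 12.05. In the alpha ring 4 of 7 rose, from 0.49 for Psma6 to 0.77 for Psma7. Of the 7 assembly chaperones, which help build the rings or the base, Psmg2 rose by 0.73 and Psmg4 by 0.40. Of the activators, Psme1, a subunit of the 11S cap, rose by 0.94 and Psme4, a large nuclear activator, by 0.41.

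The 4 members that fell by 3 h belong to 4 different roles. Psma4 of the alpha ring read 12.76 in WT and 12.92 in EP2KO at 0 h and 11.47 and 11.41 at 3 h, a fall of 1.40 on the log2 scale (limma, SE 0.134, adjusted p = 9.5e-05). Psmd11, a lid subunit, went from 11.65 and 11.72 to 10.72 and 10.71, but its 3 probe sets disagree. Psme3, a nuclear activator, went from 8.78 in WT and 9.20 in EP2KO down to 8.37 and 7.91, with a change of −0.85 ± 0.191 (limma, adjusted p = 0.00661). Psmd2, a scaffold of the base, stood at −0.36 ± 0.114 (limma, adjusted p = 0.0293).

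Bright genes also moved up in general at 3 h. Of the 2654 genes with a mean signal of at least 9, a level chosen after the values were seen, 37% rose, 16.3% fell and the median change was 0.18. The 34 members at that level had 22 rises, 2 falls and a median of 0.62. The part of that general shift in the members' rise was not tested. Under quantile normalization 17 of the 28 calls held, and those lost were Psma2, Psma5, Psma6, Psmb3, Psmb7, Psmc2, Psmc5, Psmd3, Psmd7 and Psmg4 among the rises and Psmd2 among the falls. Without the WT 0 h array 13 members rose and without the WT 3 h array 14, and without either the EP2KO 0 h or the EP2KO 3 h array 2 fell. The 3' minus 5' difference of the Gapdh control, which grows as the RNA or its amplified product shortens, lay at 1.48 to 1.86 for the 0 h arrays and 0.80 to 0.96 for the 3 h arrays. The same difference of Actb overlapped, at 0.69 to 0.97 and 0.73 to 0.76. Of 10 cumulus and granulosa markers 6 fell and 1 rose at 3 h, and of 3 erythroid markers 2 rose. The part of these measures in the members' change was not tested.

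**Figure D2:**
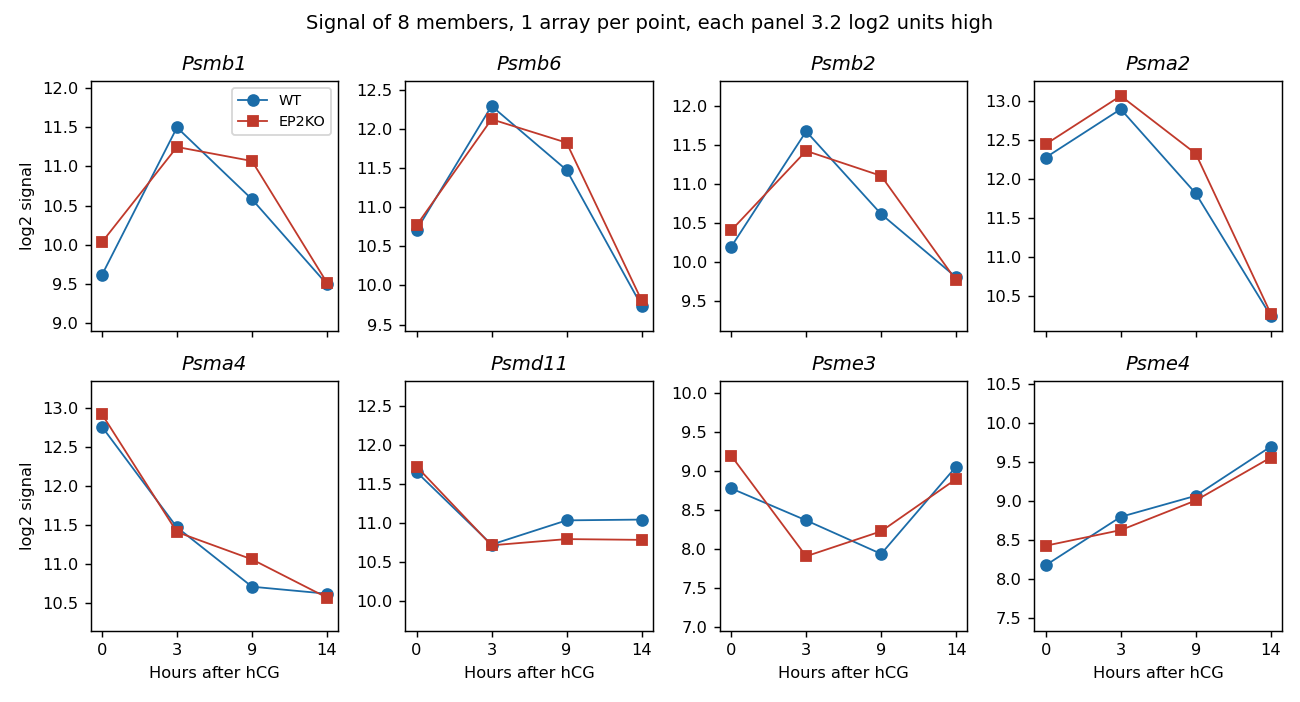
Log2 signal of 8 members against hours after hCG (times evenly spaced), with 1 point per array and blue circles for WT and red squares for EP2KO. Psmb1, Psmb6, Psmb2 and Psma2 peak at 3 h in both genotypes, Psma4 and Psmd11 are highest at 0 h, Psme3 is low at 3 and 9 h, and Psme4 rises from 8.18 and 8.43 to 9.70 and 9.56.

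By 9 h the excess over 0 h was smaller. Of the 42 members 12 rose and 4 fell against 0 h, where 12.2% of all genes rose, 11.6% fell and 23.8% passed either way; the shares of members were 28.6%, 9.52% and 38.1%. The median member stood at 0.24 and the median gene at −0.07. Psmb5 was up by 1.03 ± 0.188 (limma, adjusted p = 0.00335), with 11.66 in WT and 11.86 in EP2KO. Psmb1 was up by 1.01 and Psmb6 by 0.91. Psmd7, a lid subunit, reached its highest level here, at 11.41 and 11.45 against 10.32 and 10.76 at 0 h, a rise of 0.89 ± 0.142 (limma, adjusted p = 0.00162). Psme4 was up by 0.74. No alpha ring member rose: Psma4, the one that passed, was at 10.71 and 11.06, a change of −1.95 ± 0.134 (limma, adjusted p = 8.83e-06), and the other 6 stood between −0.29 and 0.40 and did not pass. Psme3 at −0.90, Psmd11 at −0.77 and Psmc3ip at −0.55 also fell. The count of rises dropped to 2 without the WT 0 h array, 6 without the EP2KO 9 h array and 7 without the WT 9 h array. The count of falls was 2 without the EP2KO 0 h or the WT 9 h array. At 9 h 9 of 10 cumulus and granulosa markers had fallen and 2 of 3 erythroid markers had risen, the latter with a median change of 3.17 in WT and 0.22 in EP2KO. The 3' minus 5' difference of Actb lay at 0.69 to 0.97 at 0 h and 1.12 to 1.54 at 9 h, without overlap. That of Gapdh overlapped, at 1.48 to 1.86 and 1.22 to 1.71. The part of these measures was not tested.

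From 3 to 9 h, 16 members fell and none rose, where 13.8% of all genes fell, 7.42% rose and 21.2% passed either way; 38.1% of the members fell. At an unadjusted p under 0.05 in limma 1 member was higher and 22 lower, against 16.9% and 19.9% of all genes. Psma2, an alpha ring subunit, went from 12.89 in WT and 13.06 in EP2KO to 11.81 and 12.32, a change of −0.91 ± 0.136 (limma, adjusted p = 0.00188). Psma7 changed by −0.81, Psmd3 by −0.76, Psmb2 by −0.69 and Psmc2 by −0.67, and Psmc3ip by −0.83. Psmb5 stayed near its 3 h level, at −0.10 ± 0.188, and did not pass. The median change was −0.52 in WT and −0.20 in EP2KO. The count is unsteady: 6 members fell under quantile normalization, 6 with only the 4 arrays of these times, and 4 without the WT 3 h or the WT 9 h array. At this step 6 of 10 cumulus and granulosa markers fell, and the 3' minus 5' difference went from 0.80 to 0.96 up to 1.22 to 1.71 for Gapdh and from 0.73 to 0.76 up to 1.12 to 1.54 for Actb, without overlap. The part of these measures was not tested.

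Between 9 h and 14 h, across ovulation, the members fell together. Of the 42, 28 fell and 2 rose, where 11.4% of all genes fell, 11.3% rose and 22.7% passed either way; 66.7% of the members fell. The median member changed by −0.57 and the median gene by 0.03. In both genotypes 35 members moved down, 3 up and 3 in opposite ways, with 1 unchanged in a genotype. By role 6 of 7 members fell in the alpha ring, 6 of 7 in the beta ring, 4 of 6 ATPases, 5 of 8 lid members and 3 of 7 chaperones. This comparison shares no array with that of 3 h and 0 h, but both take each probe set's residual from the same fit to all 8 arrays. Of the 24 members that rose at 3 h 21, or 87.5%, fell here, against 66.7% of all 42, and these were 75% of the 28 that fell. The like overlap over all genes was not computed.

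Psmb6 had the largest fall, from 11.48 in WT and 11.83 in EP2KO to 9.74 and 9.81, a change of −1.88 ± 0.138 (limma, adjusted p = 1.53e-05) or 3.68-fold. Both 14 h arrays lay below all 6 earlier ones. Psma2 went from 11.81 and 12.32 to 10.24 and 10.27, a change of −1.81 ± 0.136 (limma, adjusted p = 1.62e-05), again below every earlier array. Psmb1 changed by −1.32, to 9.49 and 9.51, and stood at −0.32 against 0 h, which did not pass. Its other probe sets stood at 0.05 and −0.33 from 9 to 14 h and did not pass. Psmb3, a beta ring subunit, changed by −1.22 ± 0.139 (limma, adjusted p = 0.000171), to 10.67 and 10.72. Psmc3, an ATPase, changed by −1.15, Psmb2 by −1.07, Psmd14 by −1.05, Psmd7 by −1.04 and Psma7 by −1.02. Psmc3ip changed by −1.22.

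The 2 rises were both in activators. Psme3 returned from 7.94 in WT and 8.23 in EP2KO at 9 h to 9.06 and 8.90, a rise of 0.90 ± 0.191 (limma, adjusted p = 0.00726), and Psme4 went from 9.07 and 9.01 to 9.70 and 9.56, up by 0.59 ± 0.133 (limma, adjusted p = 0.00993). On its brighter probe set Psme1, the activator subunit that had risen early, fell by 0.60 on the log2 scale, and its dimmer set went the other way. Without the WT 9 h or the WT 14 h array neither rise passed, without the EP2KO 9 h array 1 did, and with only the 4 arrays of these times none did. The falls numbered 16 without the EP2KO 9 h array, 17 without the EP2KO 14 h array and 9 with only the 4 arrays.

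Other measures moved with the 14 h arrays. The Gapdh 3' minus 5' difference lay at 2.82 to 2.87 for the 14 h arrays and 1.22 to 1.71 for the 9 h arrays, while that of Actb overlapped, at 1.37 to 1.61 and 1.12 to 1.54. Of 10 cumulus and granulosa markers 5 fell and 1 rose. Of 9 measured oviduct epithelium markers 3 rose from 9 to 14 h and none fell, with Ovgp1, the oviduct glycoprotein, up by 3.82; the summed linear signal of the list was 2569 to 2572 at 9 h and 5022 to 6171 at 14 h. Of 14 leukocyte markers 6 rose and none fell, with a summed signal of 2947 to 2952 at 9 h and 3973 to 5207 at 14 h, while Ptprc, the defining leukocyte antigen, stood at 0.08 and did not pass. Their part in the members' fall was not tested. Among the 2654 bright genes 22.8% fell and 16.7% rose, with a median of 0.01.

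**Figure D3:**
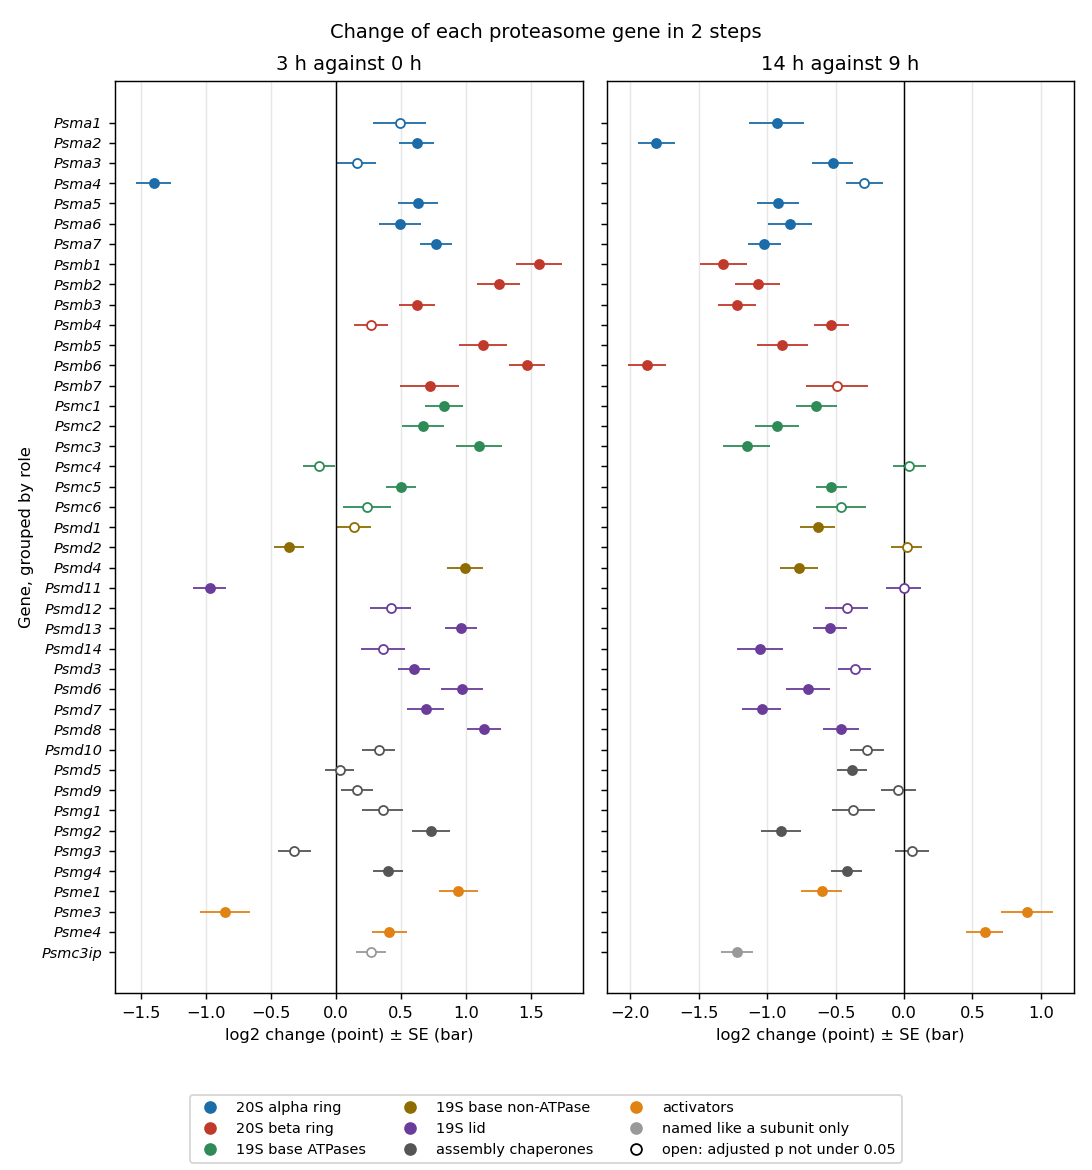
Log2 change of each of the 42 members (points, with bars of 1 SE; filled where the adjusted p was under 0.05) from 0 to 3 h (left) and from 9 to 14 h (right), with colours by role. On the left 24 filled points lie right of 0 and 4 left of it; on the right 28 lie left of 0 and 2, both activators, right of it.

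At 14 h many members stood below their level before hCG. At 14 h against 0 h, 20 members fell and 1 rose, where 15.7% of all genes fell, 15.6% rose and 31.3% passed either way; 47.6% of the members fell and 2.38% rose. The median member stood at −0.40 and the median gene at −0.04. In both genotypes 29 members moved down and 3 up, and 10 went opposite ways. The median change was −0.28 in WT and −0.53 in EP2KO. Psma4 had fallen furthest, to 10.62 in WT and 10.57 in EP2KO, a change of −2.24 ± 0.134 (limma, adjusted p = 1.49e-06) or 4.74-fold. Psma2 was next, at −2.10 ± 0.136 (limma, adjusted p = 2.27e-06) or 4.29-fold. The 2 differ in course: Psma2 first rose at 3 h and fell after that, whereas Psma4 stood at −1.95 by 9 h. Psma7 stood at −1.06 ± 0.122 and Psmb3 at −1.01 ± 0.139. In the alpha ring 6 of 7 members fell, all but Psma3, which stood at −0.18 and did not pass.

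Psme4 was the only member above its 0 h level at 14 h by the test, going from 8.18 in WT and 8.43 in EP2KO to 9.70 and 9.56, a rise of 1.32 ± 0.133 (limma, adjusted p = 4.38e-05). It was the only member whose time mean was highest at 14 h. Psmc3ip fell from 7.29 and 7.54 to 5.53 and 5.75, a change of −1.77 ± 0.116 (limma, adjusted p = 2.43e-06). Of the cutting subunits Psmb6 stood at −0.97 and passed, while Psmb5 at 0.13 and Psmb7 at −0.40 did not. The genotypes went opposite ways for both that did not pass. Psmb5 changed by 0.61 in WT and −0.34 in EP2KO, and Psmb7 by 0.11 and −0.91. Without the EP2KO 0 h array 10 members fell and without the EP2KO 14 h array 12. Of 10 cumulus and granulosa markers 8 fell as well, and the 3' minus 5' differences of Gapdh and Actb were both higher at 14 h; their part was not tested.

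The members Psmc4, Psmc6, Psmd9 and Psmg3 passed in none of the 5 time comparisons. Psmc4, an ATPase subunit, read between 5.95 and 6.21 on all 8 arrays. Its mean lay at percentile 11.5 of all genes, while the other ATPases lay between 83.5 and 97.9. Whether its only probe set reports the transcript was not tested. Psmc6, another ATPase, read between 11.16 and 11.94. The representatives of 8 members have a name with a suffix that marks shared or irregular probes. Of the other 34, 21 rose and 4 fell at 3 h, and 24 fell and 2 rose from 9 to 14 h.

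Of the 42 members 8 had several probe sets, and for 6 of them, Psmb1, Psmb4, Psmb5, Psmc5, Psmd11 and Psme1, the probe sets disagreed in at least 1 time comparison. For Psmb1 the brightest set rose by 1.56 at 3 h, the next, with a mean of 10.31, stood at −0.18 and did not pass, and the dimmest fell, at −0.68. At 9 h against 0 h the brightest set stood at 1.01 and the others at −0.22 and −0.36. From 9 to 14 h it stood at −1.32 and the others at 0.05 and −0.33, and in both comparisons only the brightest passed. For Psmb5 the brighter set rose by 1.13 at 3 h and the other fell, at −0.66. That other set stood at −0.29 at 9 h against 0 h and at 0.06 from 9 to 14 h, and did not pass. The brighter set stood at 1.03 and −0.89 and passed. The Psme1 sets stood at 0.94 at 3 h for the brighter and −0.87 for the dimmer, which has a mean of 5.17. From 9 to 14 h the brighter fell, at −0.60, and the dimmer rose by 0.47 (limma, adjusted p = 0.0463). Psmd11 was split the other way at 3 h, since its brightest set fell by 0.97 on the log2 scale and the next, with a mean of 9.98, rose by 0.51. That next set then fell, at −0.90, from 9 to 14 h. The third stood at −0.52 at 3 h. The second set follows the course of most members. For Psmb4 the sets stood between −0.53 and 0.02 from 9 to 14 h, and for Psmc5 between −0.18 and 0.43 at 9 h. The 3 sets of Psmc3 all rose at 3 h, at or above 0.51.

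**Figure D4:**
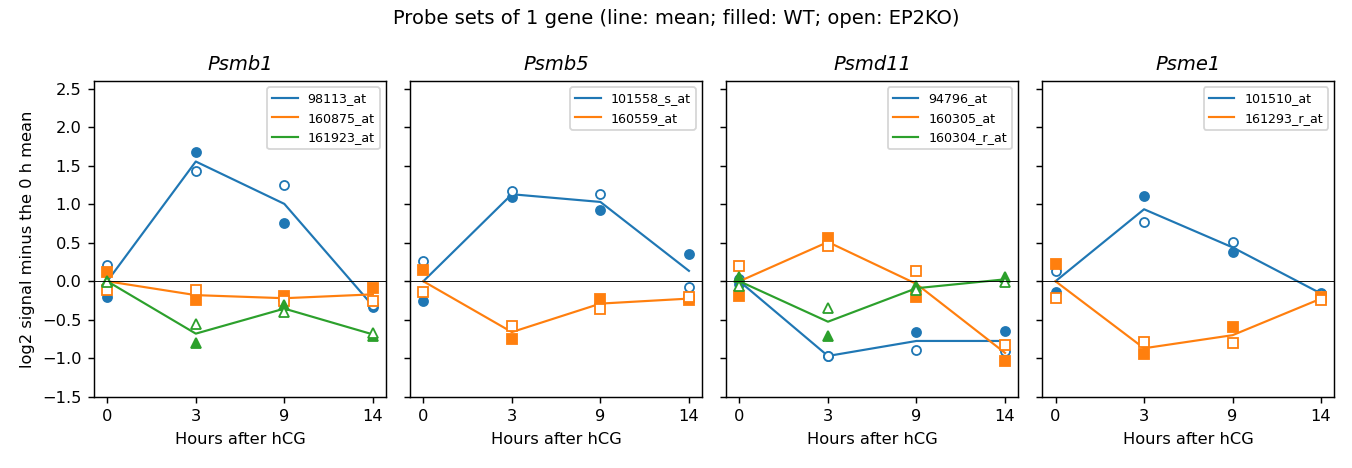
Log2 signal minus the 0 h mean against hours after hCG (times evenly spaced) for each probe set of Psmb1, Psmb5, Psmd11 and Psme1, with lines for the mean of the 2 arrays of a time, filled points for WT and open points for EP2KO. At 3 h the sets lie between −0.68 and 1.56 for Psmb1, −0.66 and 1.13 for Psmb5, −0.97 and 0.51 for Psmd11, and −0.87 and 0.94 for Psme1.

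Loss of EP2 changed no member by the test. For the mean difference between EP2KO and WT over the 4 times no member passed in limma, and 0% of all genes did. The median member stood at 0.08 and the median gene at 0.01. At an unadjusted p under 0.05 in limma 2 members were higher in EP2KO, Psma2 at 0.22 ± 0.0962 and Psmg4 at 0.21 ± 0.0823, and none lower, where 3.64% of all genes were higher and 1.91% lower; the smallest adjusted p among members was 0.944. The largest differences in either direction were 0.22 and −0.13, against a median standard error of 0.0917.

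At single times there is 1 array per genotype and hence no test. At 0 h the signal was higher in EP2KO for 39 of 42 members, with a median difference of 0.24, against a median of 0.00 for all genes. The largest was Psmc3, with 9.79 in WT and 10.39 in EP2KO, and the lowest Psmd2, at −0.18. At 3 h 10 members were higher and 31 lower, with a median of −0.10, and at 9 h 36 were higher and 6 lower, with a median of 0.20. At 14 h 15 were higher and 25 lower, with a median of −0.04. Of the genes with a mean signal of at least 9, which include 34 members, 70.8% were higher in EP2KO at 0 h. Their share was 45.8% at 3 h, 57.9% at 9 h and 41% at 14 h. The like share of all genes was not computed. Most members were thus higher in EP2KO at 0 and 9 h and lower at 3 h, and they were more mixed at 14 h. The rise from 0 to 3 h was accordingly 0.70 in WT and 0.40 in EP2KO at the median.

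The spread of signals over an array moved with these differences. For WT and EP2KO the standard deviation over all probe sets came to 1.77 and 1.84 at 0 h and 1.99 and 1.96 at 3 h. It came to 1.88 and 1.91 at 9 h, and 1.88 and 1.85 at 14 h. Genes with a mean signal of at least 9 were higher in EP2KO at 0 h by a median of 0.12 and at 9 h by 0.04. At 3 and 14 h their median difference was −0.02 and −0.05. After quantile normalization, which gives all arrays the same spread, 33 members were higher in EP2KO at 0 h with a median of 0.16, and 32 at 9 h with a median of 0.13, while the bright genes stood at 0.02 and −0.01. At 3 h 19 members were then higher and 23 lower, with a median of −0.04. At 14 h 20 were higher and 21 lower, with a median of −0.01. The part of the array spread in the remaining difference was not tested.

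**Figure D5:**
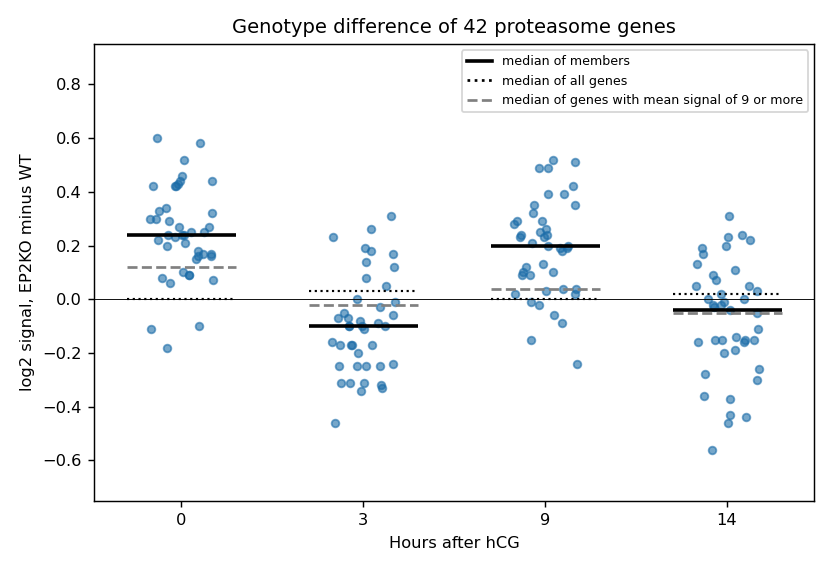
Difference in log2 signal between EP2KO and WT (vertical) at each time after hCG (horizontal) for the 42 members (points, spread sideways for legibility), with the median of the members (thick line), of all genes (dotted) and of genes with a mean signal of at least 9 (dashed). The members' medians are 0.24, −0.10, 0.20 and −0.04 at 0, 3, 9 and 14 h.

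The departure of EP2KO from WT at 14 h, beyond the difference at the earlier times, was tested as an interaction. No member passed in limma, where 0.0848% of all genes did, 0.0606% upward and 0.0242% downward. Psmb5 stood at −0.70 ± 0.224, Psmc6 at −0.68 ± 0.219 and Psmd14 at −0.63 ± 0.202, with adjusted p from 0.517 to 0.518. At an unadjusted p under 0.05 in limma 4 members were lower and none higher, against 5.72% and 2.11% of all genes. At 14 h Psmc6 read 11.72 in WT and 11.16 in EP2KO, the widest genotype gap of any member at that time.

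The 3 immunoproteasome genes replace the cutting subunits in cells exposed to interferon and in many leukocytes. At 3 h 2 of the 3 rose, where 20.1% of all genes did, and from 3 to 9 h 2 fell, where 13.8% did. Psmb8 read 7.90 and 7.86 at 0 h, 8.84 and 8.80 at 3 h, 7.81 and 8.30 at 9 h, and 8.65 and 8.86 at 14 h in WT and EP2KO. It rose by 0.94 ± 0.147 at 3 h (limma, adjusted p = 0.00114) and stood at 0.88 at 14 h against 0 h (adjusted p = 0.00125), when its constitutive counterpart Psmb5 was at 0.13. Psmb9, the counterpart of Psmb6, rose by 0.41 at 3 h and fell from 8.88 and 8.78 at 3 h to 7.35 and 7.83 at 9 h, a change of −1.24 ± 0.147 (limma, adjusted p = 0.00061). Against 0 h, where it read 8.33 and 8.51, Psmb9 fell by 9 h, at −0.83, and by 14 h, at −0.63, with 7.77 and 7.80. Psmb10, the counterpart of Psmb7, lay between 9.34 and 9.88 and passed in no time comparison. Of 19 measured interferon response genes 3 rose and 6 fell at 3 h, or 15.8% and 31.6%, against 20.1% and 23% of all genes. At 14 h against 0 h 9 rose and none fell, or 47.4% up against 15.6% of all genes. B2m, the light chain of class I MHC, stood at 1.62 at 3 h and 1.83 at 14 h. At 14 h 6 of 14 leukocyte markers rose against 0 h, as Psmb8 did, while Psmb9 fell. The part of the leukocyte markers was not tested.

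Among 10 measured partners of the proteasome, Sem1, a small lid subunit outside the naming rule, followed the core course. It went from 10.25 in WT and 10.33 in EP2KO to 12.02 and 11.70 at 3 h and to 9.88 and 10 at 14 h, a rise of 1.57 ± 0.15 at 3 h (limma, adjusted p = 9.21e-05) and a change of −1.27 ± 0.15 from 9 to 14 h (adjusted p = 0.000213). At 3 h 3 partners rose, or 30% against 20.1% of all genes, and none fell. Besides Sem1 these were Ubqln1, which shuttles substrates to the proteasome, by 0.95 and Txnl1, a thioredoxin bound to the cap, by 0.55. From 9 to 14 h 3 fell, or 30% against 11.4% of all genes. They were Sem1, Pomp, which matures the core, at −0.84 and the deubiquitinase Uchl5 at −0.53. Ecpas, a scaffold of the whole particle, rose by 0.73, which is 10% of the partners against 11.3% of all genes.

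Among the regulators, Nfe2l1 read between 9.81 and 9.98 on the 6 arrays up to 9 h and 10.69 and 10.78 at 14 h, a rise of 0.86 ± 0.121 from 9 to 14 h (limma, adjusted p = 0.000586). Nfe2l2 rose by 1.04 ± 0.169 at 3 h (limma, adjusted p = 0.00143) and was up by 1.12 at 14 h. Of the 11 measured regulators 3 rose and 2 fell at 3 h, or 27.3% and 18.2%, near the shares of all genes, and 3 rose and none fell from 9 to 14 h. Nfyb, a subunit of NF-Y, fell at 14 h against 0 h, at −0.52.

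Of 18 measured genes of ubiquitin transfer 4 rose and 4 fell at 3 h, a share of 22.2% each way. This is near the 20.1% and 23% of all genes. From 9 to 14 h 4 rose and 4 fell, again 22.2% each way, where 11.3% of all genes rose and 11.4% fell. The conjugating enzymes Ube2e1, by 1.44, Ube2v2, by 1.26, Cdc34, by 0.95, and Ube2s, by 0.82, rose at 3 h. Of the 4 that fell Ube2l6 fell furthest, at −0.66. Ube2v2 was still up by 1.24 at 14 h, and Cdc34 fell from 9 to 14 h, at −0.62. Of 5 genes of the p97 segregase and of autophagy receptors 1 rose at 3 h, or 20% against 20.1% of all genes. It was Sqstm1, the receptor p62, by 0.97, which was up by 0.96 at 14 h. Nbr1, another autophagy receptor, rose by 0.87 from 9 to 14 h.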

How the data were processed

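Gene expression was measured on 8 Affymetrix MG_U74Av2 arrays, each from 100 ng of total RNA after 2 rounds of amplification, per the labels' protocols. The deposited values are log2 signals made with RMA (robust multi-array average) per the submitters' processing notes, version not given in the sources used here; they were used as deposited, with no filter. Of 12488 probe sets 66 controls were left out. Symbols come from the platform annotation (10833 probe sets carry 1 symbol, of which 10817 matched RefSeq by gene ID, 396 several and 1193 none); the 2 probe sets naming both Psme2 and Psme2b are not members.

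Tests ran in R 4.3.3 with limma 3.58.1 (lmFit, eBayes) on terms for time and genotype, with 3 residual degrees of freedom and 7.24 prior degrees of freedom; the departure at 14 h added the genotype within the 14 h arrays. The WT and EP2KO arrays of a time serve as its pair, so a genotype difference in response enters the residual. P-values are two-sided and adjusted over 12422 probe sets; the code was tested on simulated data. Probe sets of a gene disagree where their changes have opposite signs with 1 past the threshold, or differ by 1 or more. Named with full values were the 6 largest changes per comparison, Psmb8 to Psmb10, and at most 5 genes of another list. Members and lists were chosen with earlier results of these data known. Alternatives were other scalings, a filter, averaged probe sets, a trended prior, no genotype term, fewer arrays, and, chosen after the data were seen, bright probe sets only.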

Additional observations from a re-analysis of the deposited data

How the results depend on the processing

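No paired analysis was possible because each group has 1 array and the labels link no animals. No member that passed changed direction under the alternatives run. Quantile normalization left 16 rises against 24 at 3 h and kept 17 of the 28 calls of that comparison. The count of falls from 3 to 9 h was 6, against 16, under quantile normalization and with only the 4 arrays of the 2 times; from 9 to 14 h the latter gave 9 falls against 28 and 0 rises against 2. With only probe sets of mean signal of at least 9, where 34 members remain, 2 members fell at 3 h and 2 at 9 h against 0 h, and 0 rose at 14 h against 0 h or against 9 h. The causes were not tested, except that the last setting leaves out dimmer members. Leaving out 1 array at a time gave 13 to 27 rises and 2 to 4 falls at 3 h, 2 to 14 rises and 2 to 4 falls at 9 h, 1 rise and 10 to 21 falls at 14 h against 0 h, 0 rises and 4 to 18 falls from 3 to 9 h, 0 to 2 rises and 16 to 28 falls from 9 to 14 h, and 0 in both genotype tests. Where this leaves 1 array at a time point, that array is assumed to vary like the others.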

Other observations

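The brighter of the 2 probe sets that name both Psme2 and Psme2b is no member, as it has 2 symbols. It read 9.73 in WT and 9.91 in EP2KO at 0 h, 10.52 and 10.30 at 3 h, 9.86 and 10.01 at 9 h, and 9.25 and 9.34 at 14 h. Its change was 0.59 at 3 h (limma, adjusted p = 0.00636) and −0.64 from 9 to 14 h (adjusted p = 0.00589), values of the same sign as those of Psme1, whose product joins that of Psme2 in the 11S cap. The other such probe set lay between 6.74 and 7.12 and passed in no time comparison.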
